A study of Mus musculus with 6 samples.

Results

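Epithelial identity and keratin genes were followed in tailbuds of mouse embryos at embryonic day 9.5: Epcam, Cdh1, Esrp1, Esrp2, Grhl2, Prss8, Spint1, Krt8, Krt18 and Krt19. These 10 genes, of 37310 gene identifiers in the count files, were chosen by name, with earlier results of these data known. Each of the 10 was found under 1 identifier and passed the filter on low counts. Polyadenylated RNA was sequenced from 3 libraries of Sd/Sd tailbuds and 3 libraries of WT/WT tailbuds, called WT here. Sd/Sd embryos are homozygous for Danforth's short tail, a semidominant mutation in which inserted DNA lies next to Ptf1a and switches this transcription factor gene on in the tailbud. Both genotypes came from a colony kept as Sd/+ on the outbred CD-1 background, and the labels give no further allele or treatment. Tailbuds were cut just in front of the last somite, and tailbuds of 2 animals were pooled where material was short, without a label saying in which libraries.

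Simple epithelia are sheets of polarised cells held together by adhesion proteins, sealed at their apical side and braced by intermediate filaments made of a type I and a type II keratin. In the embryonic tailbud such sheets include the hindgut and cloacal endoderm, the surface ectoderm and the nephric ducts, while most of the remaining tissue is mesenchyme, somite or neural tube. Grhl2 is a transcription factor that supports epithelial junction genes, the Esrp proteins steer alternative splicing toward epithelial isoforms, and the membrane protease prostasin and its inhibitor act on the cell surface of the same cells. A bulk tailbud holds all of these tissues, so fewer epithelial cells and less RNA per epithelial cell cannot be told apart.

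Library totals ran from 41788978 to 62296689 counts in Sd/Sd and from 42352598 to 52767718 counts in WT. Ptf1a had 2671 counts over the 3 Sd/Sd libraries and 8 counts over the 3 WT libraries, and the tailbud genes T, Tbx6, Msgn1 and Wnt3a were present in every library. The Sd/Sd libraries differed among themselves in tissue markers. In Sd/Sd replicate 3 the 10 somite markers summed to 42.6 CPM, against 399 and 490 CPM in Sd/Sd replicates 1 and 2 and 225 to 328 CPM in WT. Neural tube markers were also lowest there, at 67.1 CPM, against 143 and 173 CPM in Sd/Sd replicates 1 and 2 and 116 to 151 CPM in WT. Tailbud progenitor markers summed to 605, 337 and 853 CPM in Sd/Sd replicates 1 to 3, against 522 to 733 CPM in WT. CPM are counts scaled to library size, with library sizes adjusted by the trimmed mean of M-values method (TMM).

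The members were well covered, with 320 to 16167 counts per gene and library and levels of 5.80 to 306 CPM. Genotypes were compared with the quasi-likelihood test of edgeR, with Benjamini-Hochberg adjustment over all 15471 genes tested and a threshold of 0.05. None of the 10 members passed: 0 were lower and 0 were higher in Sd/Sd, where 0.0582% of all genes passed in either direction and 0.0194% passed as lower. At an unadjusted p under 0.05 the same test gave 4 members, Epcam, Esrp1, Esrp2 and Prss8, all lower in Sd/Sd, against 1.95% of all genes lower, and 2.9% in either direction, by that rule. DESeq2 called 1 member, Epcam, with 0.114% of all genes called lower, and limma-voom called 0 members and 0% of genes as lower. All 10 log2 fold changes were negative, with a median of -0.26 against 0.00 over all genes tested. In 5 members every Sd/Sd library lay below every WT library, a pattern found in 4.42% of all genes tested. A further 3.26% had every Sd/Sd library above every WT library, so 7.68% did not overlap in either direction. The members were chosen with earlier results of these data known, so setting them beside these shares is not a test of the set. Since the labels do not state whether replicates are separate litters, each p measures the spread between these libraries only, which may be technical.

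**Figure D1:**
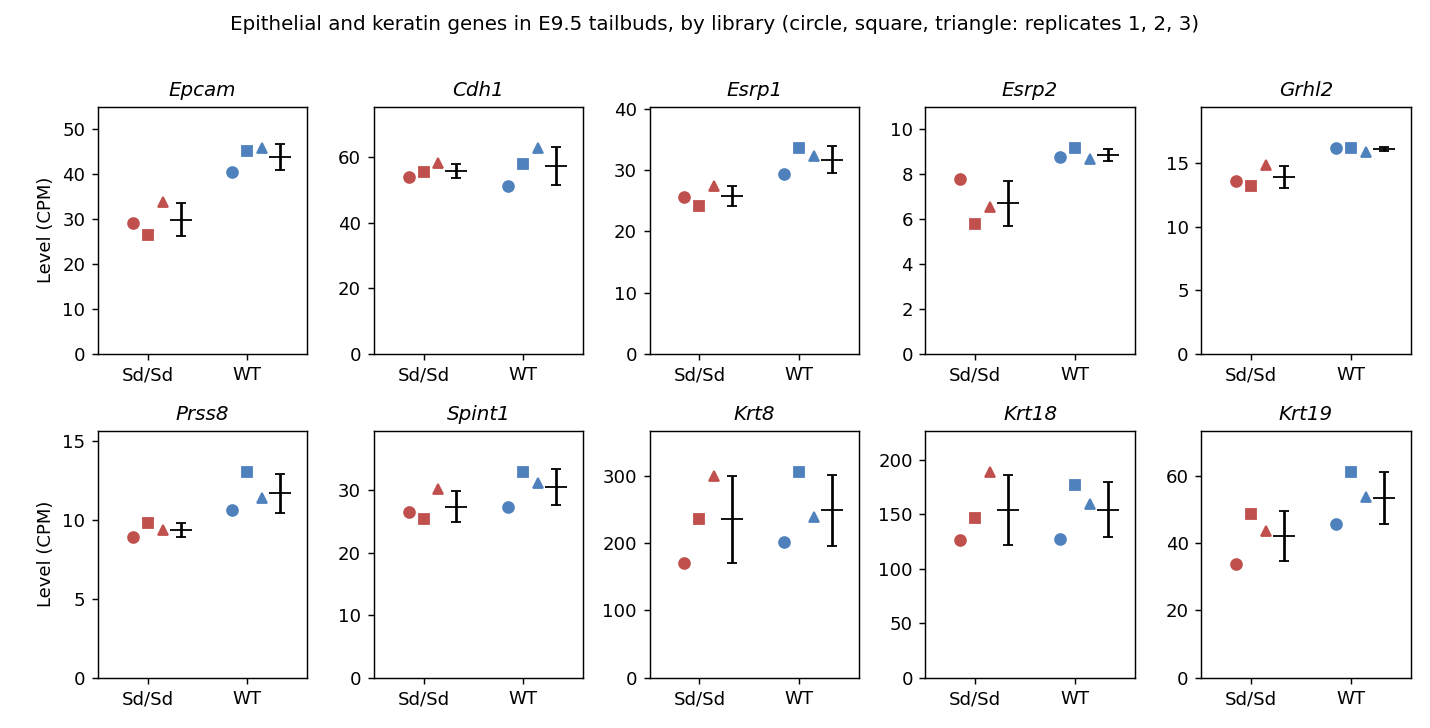
Level of each member in CPM (library-size scaled counts, linear axis from 0) in the 3 Sd/Sd and 3 WT libraries, with circles, squares and triangles for replicates 1, 2 and 3 and a black bar for the mean and SD of a group. Epcam, Esrp1, Esrp2, Grhl2 and Prss8 show no overlap between groups, whereas Cdh1, Spint1, Krt8, Krt18 and Krt19 do.

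Epcam and Cdh1 encode adhesion proteins of the lateral membrane. Epcam (ENSMUSG00000045394.8, chromosome 17), a homophilic adhesion protein used as a general epithelial marker, measured 29.1, 26.5 and 33.8 CPM in Sd/Sd replicates 1 to 3, against 40.4, 45.1 and 45.8 CPM in WT replicates 1 to 3. Every Sd/Sd library was below every WT library, and Epcam had the smallest p of the members. The means were 29.8 ± 3.72 CPM in Sd/Sd and 43.7 ± 2.93 CPM in WT (SD, n = 3 each), a level 31.8% lower (log2 fold change -0.55, SE 0.10, 95% interval -0.79 to -0.32). Epcam ranked 22 by p among all genes tested and did not pass (edgeR adjusted p = 0.333), while DESeq2 gave an adjusted p of 0.00418. The call thus depended on the test. It was also made with a score of somite genes as covariate (edgeR adjusted p = 0.0357), where 0.0517% of all genes were called lower, and not with the replicate block (edgeR adjusted p = 0.116), where 0.0259% were.

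Cdh1 (ENSMUSG00000000303.6, chromosome 8), the gene of E-cadherin, the core of epithelial adherens junctions, measured 54.0, 55.6 and 58.2 CPM in Sd/Sd replicates 1 to 3, against 51.4, 58.0 and 62.9 CPM in WT replicates 1 to 3. All 3 Sd/Sd values lay inside the WT range. The log2 fold change was -0.04 (SE 0.09, 95% interval -0.23 to 0.16, edgeR adjusted p = 1.00), so a level more than 15.03% lower or more than 11.6% higher lay outside the interval. The log2 ratio of Epcam to Cdh1 counts was -0.89, -1.07 and -0.78 in Sd/Sd replicates 1 to 3, against -0.35, -0.36 and -0.46 in WT replicates 1 to 3, with no overlap. This ratio was looked at after the values were seen and is given without a test.

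Sequence before the start site was available for 4 members, Epcam, Spint1, Krt8 and Krt18, in windows from RefSeq (GRCm38.p6). It is shown for Epcam, the member with the largest difference, and for Krt18, the keratin with the smallest, as 5′ to 3′ runs ending where transcription is first annotated in RefSeq or GENCODE. Capitals mark CAGGTG or its reverse complement CACCTG, an E-box form bound by the Snai and Zeb repressors of epithelial genes. The Epcam run covers chr17:87635729-87635978 and the Krt18 run chr15:102027966-102028179, both on the plus strand.
Epcam: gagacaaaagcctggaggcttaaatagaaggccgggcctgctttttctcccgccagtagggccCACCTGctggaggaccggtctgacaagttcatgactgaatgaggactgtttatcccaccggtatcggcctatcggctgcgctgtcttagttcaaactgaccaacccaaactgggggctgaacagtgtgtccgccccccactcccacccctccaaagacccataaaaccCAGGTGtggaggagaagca
Krt18: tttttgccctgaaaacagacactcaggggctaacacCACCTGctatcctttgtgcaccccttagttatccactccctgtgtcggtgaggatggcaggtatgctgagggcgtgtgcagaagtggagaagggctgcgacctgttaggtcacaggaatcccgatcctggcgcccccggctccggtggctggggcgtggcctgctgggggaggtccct
In the 250 bases before the RefSeq start, searched on both strands, Epcam had 2 matches, starting 187 and 19 bases before it. Krt18 had 1, starting 214 bases before, Krt8 had 1, starting 111 bases before, and Spint1 had 0. Such a match occurs in 17.2% of 32851 windows of this length. The Grhl motif AACCGGTT had 0 matches in the 4 windows and occurs in 0.116% of all windows. A match or its absence describes these letters only.

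The splicing regulators Esrp1 and Esrp2 are RNA-binding proteins that promote epithelial exons in transcripts such as those of Fgfr2 and Cd44. Esrp1 (ENSMUSG00000040728.9, chromosome 4) measured 25.5, 24.1 and 27.4 CPM in Sd/Sd replicates 1 to 3, against 29.3, 33.6 and 32.2 CPM in WT replicates 1 to 3. Esrp2 (ENSMUSG00000084128.3, chromosome 8) measured 7.79, 5.80 and 6.53 CPM in Sd/Sd replicates 1 to 3, against 8.76, 9.18 and 8.67 CPM in WT replicates 1 to 3. In both genes all Sd/Sd libraries were below all WT libraries, and neither passed. On the log2 scale the difference was -0.30 for Esrp1 (SE 0.09, 95% interval -0.51 to -0.10, edgeR adjusted p = 1.00) and -0.41 for Esrp2 (SE 0.16, 95% interval -0.76 to -0.05, edgeR adjusted p = 1.00). Esrp2 lies across from Nfatc3, a gene on the opposite strand with 42355 counts in all against 2317 for Esrp2. Whether strand was used in counting is not stated by any source at hand, so reads from the overlap of this pair cannot be told apart with certainty. Nfatc3 itself had a log2 fold change of 0.03 (SE 0.07). The files count reads per gene and hold no isoforms, so splicing itself was not measured.

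Grhl2 (ENSMUSG00000022286.9, chromosome 15), the grainyhead-like factor of junction genes such as Cdh1, measured 13.6, 13.2 and 14.9 CPM in Sd/Sd replicates 1 to 3, against 16.2, 16.2 and 15.9 CPM in WT replicates 1 to 3. The groups did not overlap, and the WT libraries were close to each other, with a coefficient of variation of 1.02% against 6.26% in Sd/Sd. At the 671 to 856 counts of the WT libraries, counting noise alone would give more than 1.02%, so no difference in spread is read from this. The log2 fold change was -0.21 (SE 0.11, 95% interval -0.45 to 0.03, edgeR adjusted p = 1.00). An opposite-strand gene model inside Grhl2, Gm16136, held 745 counts against 4498 for Grhl2, and its log2 fold change was 0.30 (SE 0.21).

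Prss8 and Spint1 stand for the surface protease system of epithelia: Prss8 encodes prostasin, a membrane-anchored serine protease, and Spint1 encodes HAI-1, a Kunitz-type inhibitor of matriptase and prostasin. Prss8 (ENSMUSG00000030800.8, chromosome 7) measured 8.93, 9.81 and 9.40 CPM in Sd/Sd replicates 1 to 3, against 10.6, 13.1 and 11.4 CPM in WT replicates 1 to 3. Its groups did not overlap, and its log2 fold change was -0.32 (SE 0.13, 95% interval -0.62 to -0.02, edgeR adjusted p = 1.00). Kat8, which overlaps Prss8 on the opposite strand, had 11018 counts against 3178 for Prss8 and a log2 fold change of 0.00 (SE 0.09). Spint1 (ENSMUSG00000027315.7, chromosome 2) measured 26.5, 25.5 and 30.1 CPM in Sd/Sd replicates 1 to 3, against 27.4, 32.96 and 31.1 CPM in WT replicates 1 to 3. Here Sd/Sd replicate 3 lay above WT replicate 1, so the groups overlapped (log2 fold change -0.16, SE 0.10, 95% interval -0.39 to 0.08, edgeR adjusted p = 1.00).

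Krt8 and Krt18 encode the type II and type I keratin that pair in simple epithelia, and their genes are near each other on chromosome 15. Krt8 (ENSMUSG00000049382.9) measured 170, 236 and 300 CPM in Sd/Sd replicates 1 to 3, against 202, 306 and 239 CPM in WT replicates 1 to 3. Krt18 (ENSMUSG00000023043.6) measured 126, 147 and 189 CPM in Sd/Sd replicates 1 to 3, against 127, 177 and 159 CPM in WT replicates 1 to 3. The groups overlapped in both genes. Replicate 1 was the lowest library of its genotype in both, whereas the highest was replicate 3 in Sd/Sd and replicate 2 in WT. The log2 fold change was -0.08 for Krt8 (SE 0.25, 95% interval -0.71 to 0.54, edgeR adjusted p = 1.00) and -0.0016 for Krt18 (SE 0.18, 95% interval -0.43 to 0.42, edgeR adjusted p = 1.00). A pseudogene copy of Krt8, Krt8-ps, is annotated in GENCODE but is not among the identifiers counted by the authors. Reads shared between the copies leave the Krt8 level uncertain to that extent.

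The level of the keratin pair varied between libraries of 1 genotype. Within each library the log2 ratio of Krt18 to Krt8 was -0.43, -0.68 and -0.66 in Sd/Sd replicates 1 to 3, against -0.67, -0.79 and -0.59 in WT replicates 1 to 3. The coefficient of variation of Krt8 was 27.6% in Sd/Sd and 21.2% in WT, against 12.5% in Sd/Sd and 6.70% in WT for Epcam. Krt8 and Krt18 are the most abundant members, so this spread is not a matter of few counts. The Krt8 interval corresponds to a level from 38.9% lower to 45.8% higher in Sd/Sd, which includes the difference measured for Epcam. The Krt18 interval, -0.43 to 0.42 on the log2 scale, excludes the Epcam value of -0.55. It overlaps the Epcam interval of -0.79 to -0.32. Equal keratin levels in the genotypes were thus not shown. With the replicate block the SE was 0.14 for Krt8, at a log2 fold change of -0.10, and 0.097 for Krt18, at -0.0090.

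Krt19 (ENSMUSG00000020911.8, chromosome 11), a small type I keratin that can also pair with Krt8, measured 34.0, 48.7 and 43.6 CPM in Sd/Sd replicates 1 to 3, against 45.8, 61.3 and 53.6 CPM in WT replicates 1 to 3. Sd/Sd replicate 2 lay above WT replicate 1, so the groups overlapped, yet replicate 1 was lowest and replicate 2 highest in both genotypes. The log2 fold change was -0.35 (SE 0.15, 95% interval -0.70 to 0.00, edgeR adjusted p = 1.00), a size between those of Prss8 and Esrp2.

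**Figure D2:**
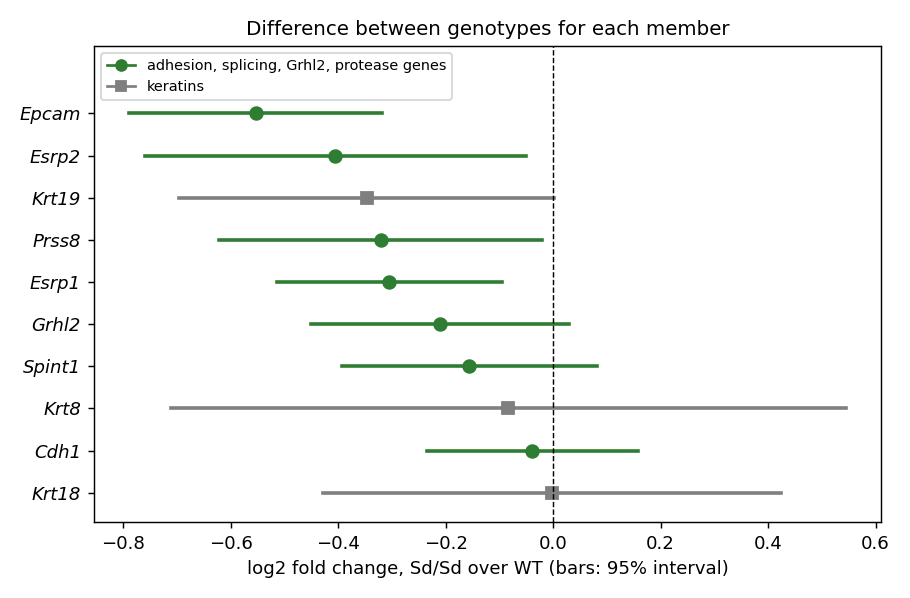
Log2 fold change of each member, Sd/Sd over WT, from the edgeR fit of all genes, with bars for the 95% interval; circles are adhesion, splicing, Grhl2 and protease genes and squares are keratins. The intervals of Epcam, Esrp1, Esrp2 and Prss8 stay below 0, and Krt8 has the widest interval, -0.71 to 0.54.

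A split of the members into genes that fall and keratins that hold was not borne out gene by gene. Among the 7 members that are not keratins, 5 had every Sd/Sd library below every WT library, against 4.42% of all genes tested. The median log2 fold change of these 7 was -0.30, but Cdh1 stood at -0.04. Among the 3 keratins, 0 were without overlap, which at that share says little about keratins. Their median was -0.08, but Krt19 stood at -0.35, or at -0.21 without Sd/Sd replicate 1. The direct comparison set Epcam against Krt8 within each library. This pair was taken with earlier results of these data known, so its p-values are not those of a pair fixed in advance. The log2 ratio of Epcam to Krt8 counts was -2.54, -3.15 and -3.15 in Sd/Sd replicates 1 to 3, against -2.32, -2.76 and -2.39 in WT replicates 1 to 3. Sd/Sd replicate 1 lay inside the WT range, and the means differed by -0.46 (-2.95 ± 0.35 in Sd/Sd and -2.49 ± 0.24 in WT, SD, n = 3 each; exact permutation test, two-sided, p = 0.2). The smallest p this design allows is 0.1. Between libraries of the same replicate number the difference was -0.22, -0.39 and -0.76 for numbers 1 to 3, negative in 3 of 3 pairs (exact sign-flip permutation test, two-sided, p = 0.25, the smallest that 3 pairs allow). Relative to Krt8, the groups also overlapped for each of the other 8 members, with differences of the mean log2 ratio from -0.31 for Esrp2 to 0.09 for Krt18.

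**Figure D3:**
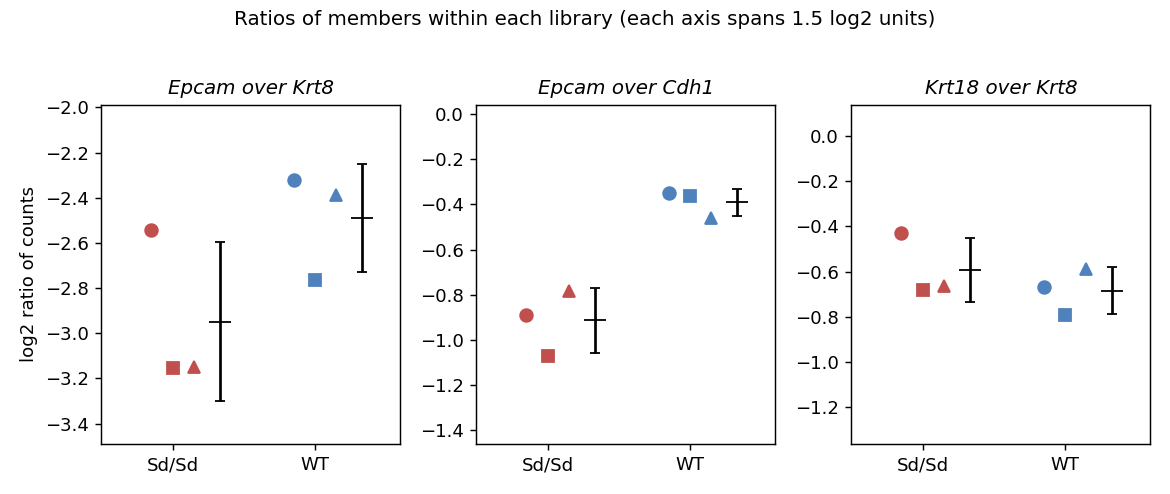
Log2 ratio of counts for 3 pairs of members within each library, in Sd/Sd and WT, with circles, squares and triangles for replicates 1, 2 and 3, black bars for mean and SD, and axes of equal span. Epcam over Cdh1 separates the groups, while Epcam over Krt8 and Krt18 over Krt8 overlap.

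The level per length ordered the members in the same way in both genotypes except at the low end. Levels are given in CPM per kilobase of exon sequence, with exon lengths from GENCODE M21 rather than from the authors' annotation. In Sd/Sd, Krt8 had 120 ± 33.1, Krt18 107 ± 22.3, Krt19 22.7 ± 4.03, Epcam 13.6 ± 1.69 and Cdh1 12.2 ± 0.461 CPM per kilobase (SD, n = 3). In WT, Krt8 had 127 ± 26.9, Krt18 107 ± 17.5, Krt19 28.9 ± 4.17, Epcam 19.9 ± 1.33 and Cdh1 12.6 ± 1.26 CPM per kilobase (SD, n = 3). The ranges of Krt8 and Krt18 overlapped in both genotypes, but within a library Krt8 was above Krt18 in 2 of 3 Sd/Sd libraries and in 3 of 3 WT libraries. Epcam lay above Cdh1 in WT, at 18.4 to 20.9 against 11.2 to 13.7 CPM per kilobase, whereas in Sd/Sd their ranges met, at 12.1 to 15.4 against 11.8 to 12.7 CPM per kilobase. Spint1, Prss8 and Esrp1 followed, at 9.89, 5.06 and 4.07 CPM per kilobase in Sd/Sd and 11.02, 6.33 and 5.03 CPM per kilobase in WT. Grhl2 and Esrp2 came last, at 1.61 and 1.54 CPM per kilobase in Sd/Sd and 1.87 and 2.04 CPM per kilobase in WT; their ranges overlapped in Sd/Sd and not in WT.

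Genes with the pattern most like that of Epcam were sought by the root mean square difference of log2 CPM, each gene centred on its mean over the 6 libraries, among 9255 named genes with a mean of at least 10 CPM. The nearest were Cldn6, Des, Cldn7, St14 and Mettl7a1, at 0.06 to 0.10. Cldn6 and Cldn7 encode claudins of tight junctions, St14 encodes matriptase and Des encodes the muscle intermediate filament desmin. Cldn6, which is also on the hindgut endoderm list, measured 48.2 ± 3.54 CPM in Sd/Sd and 69.2 ± 4.33 CPM in WT (SD, n = 3 each), a log2 fold change of -0.52 that did not pass (edgeR adjusted p = 0.173, and 0.0514 with the replicate block). Cldn6 was called by DESeq2 (adjusted p = 0.000379) and with the somite score covariate (edgeR adjusted p = 0.0357). The likeness measure includes the difference between genotypes. A gene near Epcam thus has a like difference by selection, and its p-values are no separate support. Among the members compared, Esrp1 was nearest to Epcam, at rank 14, followed by Prss8 at 59, Grhl2 at 77, Spint1 at 113, Krt19 at 301 and Cdh1 at 1159, with Krt18 and Krt8 at 3771 and 5870. The keratin Krt19 was thus nearer to Epcam than Cdh1 was. Esrp2, at means of 6.70 CPM in Sd/Sd and 8.87 CPM in WT, was below the cut of 10 CPM and was not compared. Around Krt8 the nearest genes were Itga2b, Prdm6, Serpinb6a, Dkk3 and Dubr, at 0.09 to 0.10, and Krt18 was at rank 8. These ranks describe 6 libraries in 2 groups and carry no test.

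Other genes of the epithelial program were taken from 6 lists, and 0 of their members passed (edgeR). In the matriptase and prostasin network, 8 of 8 tested genes had values below 0 (median -0.24 on the log2 scale). In 4 of them every Sd/Sd library was below every WT library, against 4.42% of all genes tested. St14, the gene of matriptase, measured 11.5, 11.9 and 15.2 CPM in Sd/Sd replicates 1 to 3, against 19.1, 19.5 and 18.0 CPM in WT replicates 1 to 3 (log2 fold change -0.55, SE 0.13, edgeR adjusted p = 0.862). F2rl1, the gene of the protease-activated receptor PAR2, measured 1.99, 2.36 and 4.18 CPM in Sd/Sd replicates 1 to 3, against 5.03, 5.601 and 6.70 CPM in WT replicates 1 to 3 (-1.02 on the log2 scale, SE 0.29, edgeR adjusted p = 1.00). Tmprss2 and Spint2, a transmembrane serine protease gene and the gene of the inhibitor HAI-2, complete the 4 and were named after their values were seen. Tmprss2 measured 12.4 ± 4.72 CPM in Sd/Sd and 22.8 ± 3.19 CPM in WT (SD, n = 3 each; -0.88 on the log2 scale, SE 0.26, edgeR adjusted p = 1.00), and it was called by DESeq2 (adjusted p = 0.0293) and with the somite score covariate (edgeR adjusted p = 0.0357). Spint2 measured 33.8 ± 3.22 CPM in Sd/Sd and 41.2 ± 3.86 CPM in WT (log2 fold change -0.28, SE 0.10).

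Adhesion and polarity genes other than the members were mixed. Of 22 tested genes, 16 had values below 0, and the median was -0.10 on the log2 scale. Every Sd/Sd library lay below every WT library in 5 of 22, against 4.42% of all genes tested. In 1 of 22 every Sd/Sd library lay above every WT library, which is near the share of 3.26% over all genes. Crb3, an apical polarity gene, measured 3.18, 2.99 and 1.92 CPM in Sd/Sd replicates 1 to 3, against 5.18, 4.75 and 5.07 CPM in WT replicates 1 to 3 (-0.89 on the log2 scale, SE 0.23, edgeR adjusted p = 1.00). Marveld3, a tight junction gene, measured 0.550 ± 0.235 CPM in Sd/Sd and 1.34 ± 0.270 CPM in WT (SD, n = 3 each; -1.27 on the log2 scale, SE 0.40, edgeR adjusted p = 1.00). Both had groups without overlap at low levels.

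Transcription factor genes of epithelia had 8 of 12 negative values and a median of -0.14. Klf5, a Krüppel-like factor of gut epithelium, measured 1.72, 1.49 and 1.55 CPM in Sd/Sd replicates 1 to 3, against 2.503, 2.97 and 2.42 CPM in WT replicates 1 to 3 (-0.73 on the log2 scale, SE 0.23, edgeR adjusted p = 1.00). Tfcp2l1, a grainyhead-related factor, had a log2 fold change of -0.72 (SE 0.29). Klf4, named after its values were seen, went the other way, at 3.17 ± 0.110 CPM in Sd/Sd and 2.27 ± 0.241 CPM in WT, with no overlap (SD, n = 3 each; log2 fold change 0.48, SE 0.20, edgeR adjusted p = 1.00). Splicing regulators other than the Esrp genes had a median of 0.03 over 6 genes, with Rbm47 at -0.87 (SE 0.43), or -0.49 without WT replicate 2, and Mbnl1 at -0.21 (SE 0.20), which ran from -0.44 to -0.069 without single libraries.

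Keratin and plakin genes beyond the members had a median of -0.09 over 13 tested genes. In 0 of 13 every Sd/Sd library lay below every WT library, which says little at a share of 4.42% over all genes tested. Krt7, a type II keratin of simple epithelia, measured 18.4, 25.0 and 13.2 CPM in Sd/Sd replicates 1 to 3, against 25.8, 26.7 and 23.5 CPM in WT replicates 1 to 3 (-0.42 on the log2 scale, SE 0.21, edgeR adjusted p = 1.00). Its groups overlapped through Sd/Sd replicate 2. Ppl, the gene of periplakin, had a log2 fold change of 0.35 (SE 0.23), which was 0.059 without Sd/Sd replicate 2. Krt7 stood at -0.22 without Sd/Sd replicate 3 and at -0.68 without Sd/Sd replicate 2. Mesenchymal genes and repressors of Cdh1 had a median of 0.01 over 12 genes, within -0.22 to 0.12. Twist2 was at -0.18 (SE 0.10) and Zeb2 at 0.12 (SE 0.09), or 0.025 without Sd/Sd replicate 1.

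**Figure D4:**
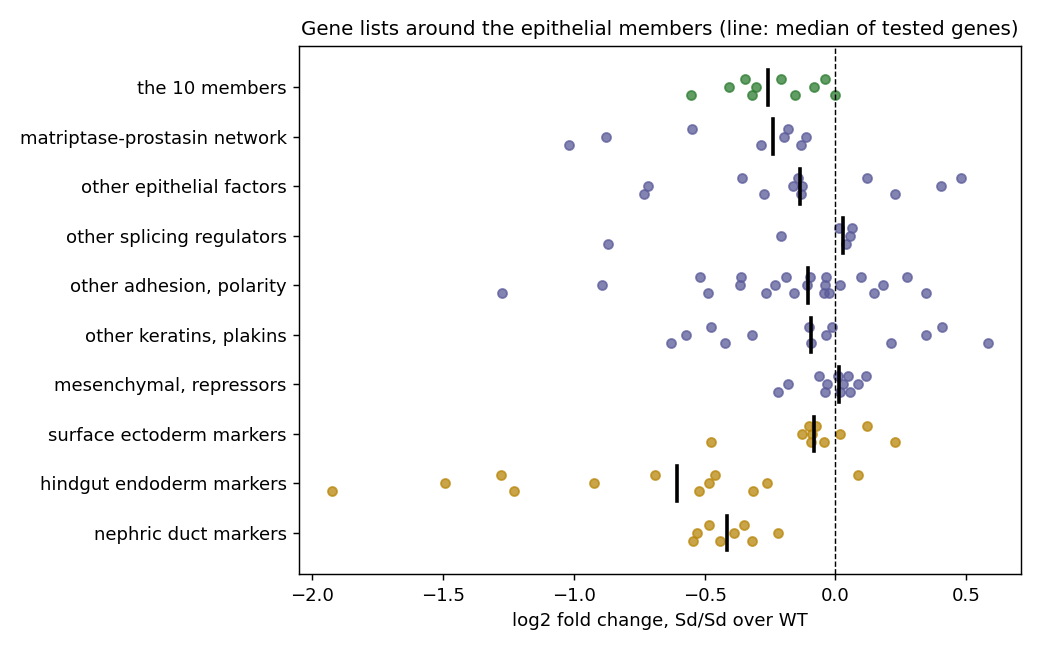
Log2 fold change, Sd/Sd over WT, of each tested gene in the members, 6 lists of related genes and 3 lists of tissue markers; 1 point is 1 gene and the black line is the median of a list. Medians run from -0.61 in hindgut endoderm markers to 0.03 in splicing regulators, and the surface ectoderm median is -0.08.

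Markers of tissues that could supply epithelial RNA differed in how far they stood from 0. Hindgut endoderm markers summed to 157 to 168 CPM in Sd/Sd and 215 to 224 CPM in WT. Cldn6, the gene nearest to Epcam in pattern, averaged 48.2 CPM of this in Sd/Sd and 69.2 CPM in WT. Gata6, the 1 positive value and named after its values were seen, averaged 47.8 CPM in Sd/Sd and 45.0 CPM in WT. In 8 of 12 tested genes every Sd/Sd library was below every WT library, against 4.42% of all genes tested. The hedgehog ligand genes Shh and Ihh, 2 of 12, fell past the threshold (edgeR adjusted p = 0.0438 for each), against 0.0194% of all genes called lower. Shh averaged 5.38 ± 1.25 CPM in Sd/Sd and 15.1 ± 1.55 CPM in WT, and Ihh 0.788 ± 0.044 CPM in Sd/Sd and 2.998 ± 0.363 CPM in WT (SD, n = 3 each). Both calls were lost when any 1 of the 6 libraries was left out. DESeq2 called 5 hindgut markers, Shh, Ihh, Foxa1, Foxa2 and Cldn6, all lower in Sd/Sd, against 0.114% of all genes called lower. Foxa1 and Foxa2 are named after their values were seen. Nephric duct markers summed to 78.6 to 106 CPM in Sd/Sd and 124 to 127 CPM in WT, with 8 of 8 values negative and 0 past the threshold. In 3 of these 8 every Sd/Sd library was below every WT library, against 4.42% of all genes tested. Pax2 and Ret, a transcription factor and a receptor gene of the duct, stood at -0.54 (SE 0.14) and -0.39 (SE 0.10). Surface ectoderm markers summed to 120 to 144 CPM in Sd/Sd and 128 to 146 CPM in WT, with 7 of 10 values negative and 0 past the threshold. None was without overlap, against 7.68% of all genes tested in either direction, a share at which 0 of 10 says little. Trp63 and Grhl3, a basal ectoderm factor and a grainyhead factor of surface ectoderm, had the smallest p of these and stood at 0.12 (SE 0.10) and 0.23 (SE 0.14) on the log2 scale, while the list had a median of -0.08 and a lowest value of -0.48. Shh and Foxa2 are on both the hindgut and the notochord list. No marker of these 3 lists was at 0 in any library. The part of hindgut, duct and ectoderm content in the values of Epcam and the other members was not tested.

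Markers of other tissues were measured in the same way. Visceral yolk sac markers summed to 7.22 to 9.90 CPM in Sd/Sd and 11.2 to 11.97 CPM in WT, with 6 of 7 values negative. Germ cell markers summed to 23.6 to 27.0 CPM in Sd/Sd and 26.0 to 29.8 CPM in WT. Notochord markers summed to 97.5 to 222 CPM in Sd/Sd and 192 to 233 CPM in WT, with 7 of 7 values negative, of which Shh passed. Most of this sum was T, also a tailbud progenitor marker, at 141 ± 63.2 CPM in Sd/Sd and 160 ± 21.1 CPM in WT. In 4 of 7 every Sd/Sd library was below every WT library, against 4.42% of all genes tested. Noto, named after its values were seen, averaged 1.36 ± 1.09 CPM in Sd/Sd and 9.24 ± 1.66 CPM in WT. Its log2 fold change of -2.79 (SE 0.86) did not pass. Sd/Sd replicate 3 was the library poorest in somite and neural tube markers and richest in tailbud progenitor markers. In this library Epcam, Cdh1, Esrp1, Grhl2, Spint1, Krt8 and Krt18 each had their highest Sd/Sd value. Without that library the log2 fold change of Epcam was -0.65 (edgeR adjusted p = 0.0933) and that of Krt8 was -0.30 (edgeR adjusted p = 0.992).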

How the data were processed

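The authors deposited raw counts per gene, in 1 file for each library with 37310 Ensembl identifiers. STAR 2.5.2b, bcl2fastq 2.17.1.14, SAMtools, CASAVA, DESeq2 and mm9 appear in the submitters' processing notes, with no role stated. Neither the program that counted reads nor its annotation or use of strand is given in the sources used here. The kit marks strand, per the labels' protocols. Symbols, chromosomes and exon lengths came from GENCODE M21 (GRCm38), which named 32620 identifiers; unnamed ones held 0.622% of counts.

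The low-count filter was filterByExpr with a minimum count of 10 and a minimum total of 15, which left 15471 genes with 99.967% of counts. The test of Sd/Sd against WT used edgeR 4.0.16 in R 4.3.3 (TMM, robust glmQLFit and glmQLFTest, two-sided, threshold 0.05). The standard error is the log2 fold change divided by the square root of F, and intervals use 95% of the t distribution. The biological coefficient of variation was 18.6%. Scripts were tested on simulated data.

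Members and lists were chosen with earlier results of these data known. Genes named are the 10 members, up to 4 genes past the threshold or else the 2 of smallest p from each list, at most 2 per marker list, and the 5 nearest to Epcam and to Krt8. Alternatives were DESeq2 1.42.0, limma-voom (limma 3.58.1), other scalings, filters and dispersions, a somite score covariate, the replicate block and leaving out each library. Deviations from group means of same-number libraries correlated at 0.194, 0.144 and 0.275 over 15471 genes, each above 0.1, which was taken as pairing; this rests on the data, not on the labels, and Sd replicate 2 with WT replicate 1 also reached 0.182. Within a group, all pairs of libraries differed by more than sampling noise.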

Additional observations from a re-analysis of the deposited data

How the results depend on the processing

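The count of members past the threshold stayed at 0 in 13 of 15 alternatives and was 1, Epcam, with DESeq2 and with the somite score covariate; it ranged from 0 to 0 when each library was left out in turn. The log2 fold change of Epcam ran from -0.65 to -0.47 without single libraries and from -0.58 to -0.55 otherwise, with an adjusted p from 0.00418 to 1.00. With the replicate block Epcam stood at -0.56 (edgeR adjusted p = 0.116) and Krt19 at -0.35 (SE 0.08, edgeR adjusted p = 0.324); the block changed no call among the members. Sign was kept in all alternatives for 7 members and turned in some for Cdh1, Krt8 and Krt18, whose values without single libraries ran from -0.11 to 0.03, from -0.30 to 0.11 and from -0.18 to 0.13. Krt8 was positive without Sd replicate 1 (0.11) or WT replicate 2 (0.09), and Cdh1 without WT replicate 3 (0.031). Without single libraries Krt19 ran from -0.46 to -0.21 and Spint1 from -0.23 to -0.095. Krt18 was also just above 0 with RLE factors (0.0024), with no filter on low counts (0.0016) and with DESeq2 (0.0023). Scaling moved the median of all genes by under 0.01. The difference of the Epcam to Krt8 ratio ran from -0.66 to -0.35 without single libraries and was -0.46 with a pseudocount of 5. Pairing it by replicate number, an alternative chosen after seeing the data, left it at -0.46 (exact sign-flip permutation test, p = 0.25). Shh and Ihh kept their direction and lost the call without each single library, with limma-voom and without the robust option. With 3 libraries a group, the precision is set by the spread between libraries and not by depth for genes at these counts.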

Other observations

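Further ratios within libraries were looked at after the values were seen and carry no test. The log2 ratio of Krt19 to Krt18 counts, 2 type I keratins, was -1.89, -1.59 and -2.12 in Sd/Sd replicates 1 to 3, against -1.47, -1.53 and -1.57 in WT replicates 1 to 3. All Sd/Sd values were below all WT values, whereas the levels of Krt18 and Krt19 each overlapped between groups. The log2 ratio of Esrp1 to Cdh1 counts was -1.08, -1.20 and -1.09 in Sd/Sd replicates 1 to 3, against -0.81, -0.79 and -0.97 in WT replicates 1 to 3, again without overlap.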
